A study of Mus musculus with 20 samples.

Results

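RNA of 10 genes for microtubule-associated proteins and stathmins was followed through 20 mouse libraries: Map1a, Map1b, Map2, Mapt, Dcx, Dclk1, Stmn1, Stmn2, Stmn3 and Stmn4. They were chosen by name, as the structural microtubule-associated proteins, the doublecortin pair and the stathmins, and are 10 of the 55487 genes in the deposited count table. The choice was made with earlier results of these data known. All 10 were found, and all 10 passed the filter on low counts in every comparison. The libraries came from subcerebral projection neurons at postnatal day 1, the cortical neurons that send axons to the brainstem and spinal cord. Growth cones, the tips of growing axons, were taken from brainstem and spinal cord, and somata, the cell bodies, from the cortex. Both compartments were taken from wild type (WT) mice and from mice labelled Bcl11b KO, with 5 libraries in each of the 4 groups. Bcl11b encodes a transcription factor of these neurons. The labels give neither the allele, nor a driver, nor the number of animals, nor how cells and growth cones were isolated, and no treatment is named. They do not say that libraries of 1 group came from separate animals, so p-values measure the spread between these libraries, which may be in part technical.

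Microtubules are polymers of tubulin that fill the axon and probe into the growth cone from behind. Microtubule-associated proteins bind along the polymer and stabilise, space or bundle it, while stathmins bind free tubulin and favour disassembly. Young neurons are known for high levels of Map1b, doublecortin and the stathmins, Map2 protein for its place in somata and dendrites, and tau for its place in axons.

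Library totals ran from 18962308 to 51205154 counts in somata and from 21657575 to 29323028 in growth cones. The targeted gene did not mark the genotype by its count. Bcl11b RNA was at 700.4 ± 129.6 CPM (read counts scaled to library size by the TMM method; SD, n = 5) in WT somata and at 1151 ± 56.6 in somata labelled KO, higher by 0.71 ± 0.12 on the log2 scale (SE; edgeR quasi-likelihood test, adjusted p = 0.0153). That call was lost with all 20 libraries in 1 fit (adjusted p = 0.279), with detected genes as covariate (adjusted p = 0.0591) and with the experiment number as a block (adjusted p = 0.162). Growth cones held 101 ± 19.3 CPM in WT and 102 ± 35.0 in libraries labelled KO. A count over the whole gene cannot show which exons an allele removes, and every genotype direction given here rests on the labels. Sums over marker genes are given as CPM scaled to library totals alone. The 8 markers of subcerebral projection neurons, Bcl11b among them, summed to 2086 to 2359 CPM in WT somata and 2591 to 2835 in those labelled KO, with no overlap, and to 709.9 to 1039 CPM in the growth cone libraries. Bcl11b alone was at 494 to 779.8 CPM in WT somata and 1023 to 1151 in those labelled KO. Etv1 (49.6 to 127 against 208 to 292), Fezf2 and Tox were also higher in somata labelled KO, with no overlap. Crym (96.3 to 238 against 18.6 to 56.2) and Pcp4 (26.6 to 58.9 against 9.53 to 13.9) were lower with no overlap, and Ldb2 and Sox5 overlapped. Unlike the sum, Pcp4 was higher in growth cone libraries than in somata, at 131 to 455 CPM. So was Crym in libraries labelled KO, at 61 to 163 CPM in growth cones, while in WT the compartments overlapped for Crym and for Etv1. Markers of other cells were higher in growth cone libraries. All 6 hindbrain and spinal cord markers were detected there, with sums of 48.4 to 159.7 CPM against 0 to 0.181 in somata, where Hoxc6 was at 0 in every library, and Hoxb8 and Hoxc8 were at 0 in all those labelled KO. Sums over the 6 oligodendrocyte markers were 516 to 2232 CPM in growth cones and 57.4 to 100.3 in somata. The 6 astrocyte markers summed to 316 to 850.1 CPM against 10.6 to 196. The 5 interneuron markers gave 229 to 466 CPM against 8.57 to 39.7, and the 5 markers of vessels and blood 221 to 535 against 0.284 to 58.6. Microglial markers overlapped, at 10.5 to 68.4 against 2.24 to 64.8, as did those of cycling cells, at 6.14 to 78.6 against 4.49 to 17.4. The part of these cells in the compartment results was not tested, and in bulk RNA fewer cells of a type and less RNA per cell cannot be told apart.

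Between growth cones and somata, Map1a was 4.83-fold higher in WT growth cones, and 8 of the 10 genes were lower, from 1.4-fold for Stmn3 to 5.14-fold for Map1b. Stmn2 was the gene that did not pass the test. The same split of 1 higher, 8 lower and 1 not past the threshold was found in libraries labelled KO. The edgeR test called 42.8% of the 15128 genes tested in WT (23.1% higher and 19.7% lower in growth cones) and 38.6% of 15410 in libraries labelled KO (21.6% and 17.0%). Libraries of the 2 compartments did not overlap for 8 members in WT and 9 in those labelled KO, against 37.9% and 36.9% of all genes tested. The median log2 fold change of the members was -1.05 in WT and -1.23 in libraries labelled KO, against 0.07 and 0.11 for all genes tested. Soma libraries were built from 1.8 to 3.1 ng of RNA and growth cone libraries from 0.19 to 3.1 ng, and the part of input in these differences was not tested.

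**Figure D1:**
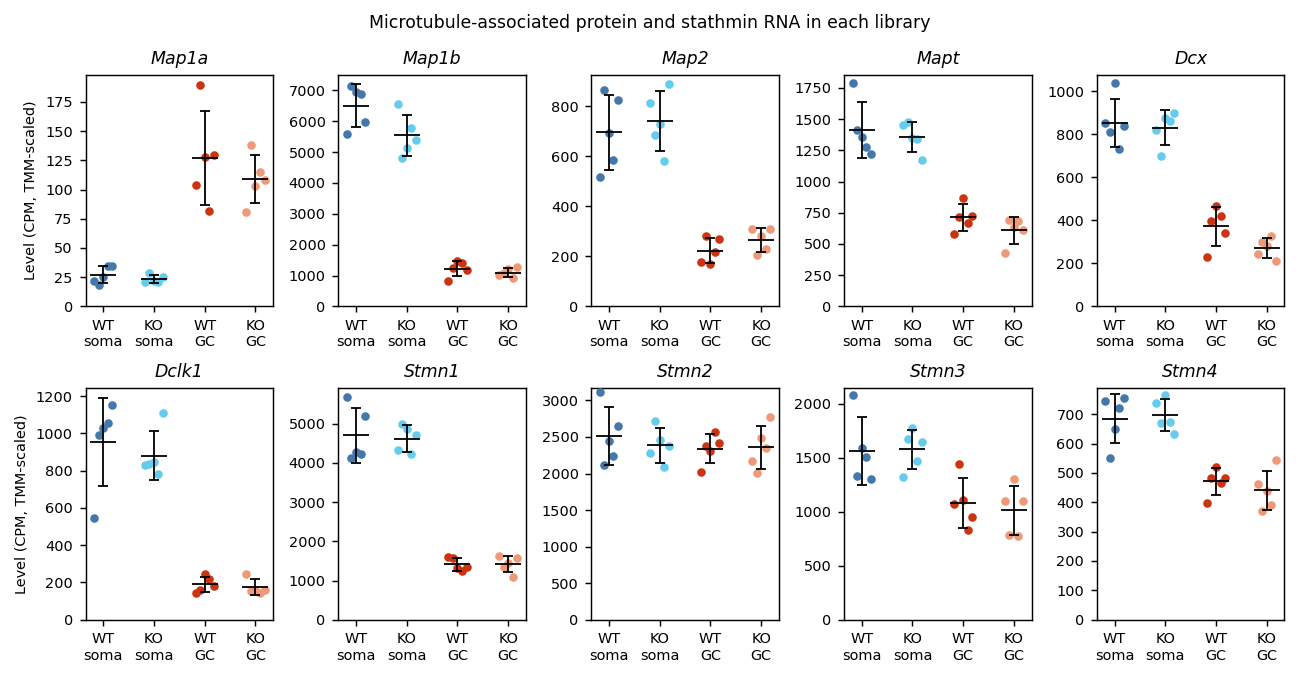
Level of each member in TMM-scaled CPM on a linear axis from 0, in somata and growth cones (GC) of WT mice and mice labelled KO. Points are libraries and the bars are the mean and SD of 5; Map1a is the gene with higher levels in growth cones, and the 4 groups of Stmn2 overlap.

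Map1a and Map1b encode the heavy chains of related proteins that bind along microtubules; Map1b is the form of growing axons and Map1a is better known from mature neurons. Map1a (chr2:121289600-121310832, plus strand, GRCm38) was low in every soma library. In WT somata of experiments 12, 14, 22, 25 and 26 it stood at 22.1, 18.5, 25.5, 34.4 and 34.9 CPM. In WT growth cones of experiments 7 to 11 it stood at 104, 189.8, 128, 81.5 and 129.5 CPM. The lowest growth cone library lay above the highest soma library, and the log2 fold change was 2.27 ± 0.27 (SE; edgeR, adjusted p = 4.15e-05). Libraries labelled KO gave 20.6 to 28.8 CPM in somata and 80.8 to 138 in growth cones, with no overlap and a log2 fold change of 2.30 ± 0.20 (edgeR, adjusted p = 6.63e-06). Of all genes tested in WT, 14.9% had a log2 fold change at least as high. Exons of Map1a overlap by up to 272 bases with Ppip5k1 on the other strand. The library kit does not mark strand, so reads of the 2 genes in that stretch cannot be told apart. The same holds for up to 124 bases of Map2 exon, shared with Gm10558, and 87 bases of Dclk1 exon, shared with Gm42609.

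Map1b (chr13:99421446-99516540, minus strand) went the other way. It stood at 5579, 7137, 6962, 6887 and 5976 CPM in WT somata, in the order of experiments given above. WT growth cones held 834, 1242, 1459, 1422 and 1176 CPM. Each growth cone library was far below each soma library, with a log2 fold change of -2.36 ± 0.15 (edgeR, adjusted p = 5.92e-07), and only 4.35% of genes tested had one as low. KO-labelled libraries ranged from 4806 to 6562 CPM in somata and 915 to 1268 in growth cones. Their fold change was -2.26 ± 0.13 on the log2 scale (edgeR, adjusted p = 4.14e-07).

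Per kilobase of exon, so that the 2 genes can be set side by side, Map1b exceeded Map1a 189-fold in WT somata and 7.6-fold in WT growth cones. The log2 ratio of Map1b to Map1a was 7.56 ± 0.45 (SD, n = 5) in somata and 2.93 ± 0.54 in growth cones, and no library of the 2 sets overlapped. The difference of -4.64 had an exact two-sided permutation p of 0.00794, the smallest that 5 against 5 libraries can give, and 0.0238 after adjustment over the 12 ratio tests made here. The KO-labelled ratio stood at 182 for somata against 7.76 for growth cones, and these lay 23.5-fold apart (exact permutation p = 0.00794, adjusted 0.0238). Map1a thus made up 0.545% ± 0.162 of the pair's exon-scaled level in WT somata and 12.1% ± 3.66 in WT growth cones. The shares in libraries labelled KO were 0.56% ± 0.141 and 11.6% ± 2.44.

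**Figure D2:**
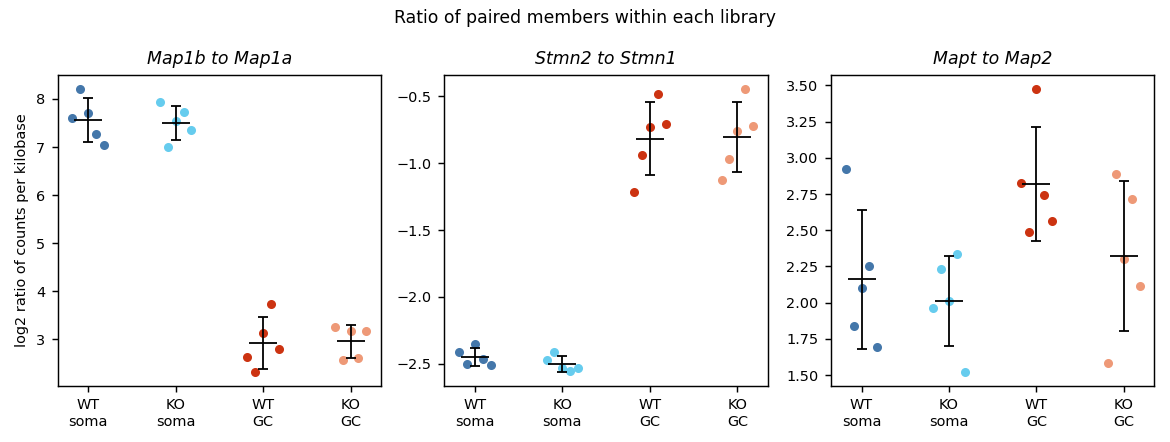
log2 ratio of counts per kilobase of exon for 3 pairs of members within each library, by compartment (GC, growth cones) and genotype label. Points are libraries and bars are the mean and SD of 5; Map1b to Map1a falls from 7.56 to 2.93 between WT somata and growth cones, Stmn2 to Stmn1 rises from -2.45 to -0.81, and the Mapt to Map2 groups overlap.

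The 3′ UTRs of the 2 MAP1 genes are shown for 2 short elements because these genes share them and moved in opposite directions. The AU-rich nonamer UUAUUUAUU is known as a site of proteins that govern mRNA decay, and UGUANAUA as the element of Pumilio proteins. Both were searched on the mRNA strand of the longest complete coding transcript of each gene in GENCODE M21. Among 3′ UTRs within 25% of the same length, 12.8% hold the nonamer at the length of Map1a and 17.5% at that of Map1b. The nonamer occurs 2 times in each, the 2 in Map1a overlapping each other at 351 and 355 bases after the stop codon. The genome strand of the mRNA is printed, with the nonamer in capitals.
Map1a, chr2:121308429-121308455, plus: agaacctcaTTATTTATTtatttggca
Map1b, chr13:99423670-99423696, minus: ctatgttagTTATTTATTtcaaaattt
Map1b, chr13:99423447-99423473, minus: gcagcttttTTATTTATTatcctgttt

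The Pumilio element is present 1 time in Map1a, Map1b and Stmn2 and 2 times in Dcx, against 41.8%, 54.4%, 24.3% and 74.3% of 3′ UTRs of like length. It is printed for Map1a, Map1b and Stmn2, which were higher, lower and not past the threshold in growth cones, with the element in capitals.
Map1a, chr2:121310269-121310295, plus: ctttcctgaTGTACATAtgtcaacaga
Map1b, chr13:99424755-99424781, minus: atgtaggatTGTAGATActccagggaa
Stmn2, chr3:8560536-8560562, plus: atcttatttTGTAAATAtttacatttt
The nonamer was not found in the 3′ UTRs of Mapt, Dcx, Dclk1 or the 4 stathmins, and the Pumilio element was not found in Mapt, Dclk1, Stmn1, Stmn3 or Stmn4. Map2 was left out because its exon list in the count table differs from that of the annotation. A match is a run of letters and not evidence of binding, and its part in any level was not tested.

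Map2 and Mapt encode related proteins whose repeats bind the microtubule wall, Map2 mainly in dendrites and tau, the product of Mapt, mainly in axons. Both RNAs were lower in growth cones. Map2 (chr1:66175273-66442583, plus) stood at 516, 864, 692, 584 and 824 CPM in WT somata. It stood at 178, 281, 171, 216 and 269 CPM in WT growth cones. No growth cone library reached the lowest soma library, and the log2 fold change was -1.59 ± 0.19 (edgeR, adjusted p = 4.38e-05). Libraries labelled KO held 580.4 to 891 CPM in somata and 204 to 311 in growth cones, a log2 fold change of -1.39 ± 0.16 (edgeR, adjusted p = 5.07e-05).

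Mapt (chr11:104231390-104332090, plus) was measured at 1789, 1411, 1357, 1276 and 1217 CPM in WT somata. WT growth cones held 578, 719.8, 872, 664 and 726 CPM. The groups did not overlap, and the log2 fold change was -0.94 ± 0.14 (edgeR, adjusted p = 0.000234). The KO-labelled libraries ran from 1173 to 1473 CPM in somata and from 426 to 691 in growth cones, -1.07 ± 0.14 on the log2 scale (edgeR, adjusted p = 0.000116).

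Whether tau RNA held up better than Map2 RNA was read from their ratio within each library. The log2 ratio of Mapt to Map2 per kilobase was 2.16 ± 0.48 in WT somata and 2.82 ± 0.39 in WT growth cones (exact permutation p = 0.0476, adjusted 0.114), and the libraries overlapped. Without WT soma library 12, which holds the highest Mapt and lowest Map2 of its group, the difference went from 0.66 to 0.85 and the adjusted p to 0.019 by the same exact permutation test. That was the only 1 of the 10 fits without 1 library to pass the threshold. In the other 9 the ratio test still did not pass. Over all 10 the difference ran from 0.49 to 0.85, with an adjusted p of up to 0.248 by the same test. The KO-labelled difference was 0.31 (exact permutation p = 0.262, adjusted 0.393).

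Dcx encodes doublecortin, a protein of migrating and young neurons that binds between protofilaments, and Dclk1 a relative that carries a kinase domain. Dcx (chrX:143855842-143933311, minus) stood at 852, 808, 1036, 732 and 836 CPM in WT somata. It stood at 229, 399, 467, 419.9 and 343 CPM in WT growth cones. The highest growth cone library was below the lowest soma library, with a log2 fold change of -1.15 ± 0.18 (edgeR, adjusted p = 0.000266). KO-labelled levels were 698 to 898 and 209 to 327 CPM, a log2 fold change of -1.53 ± 0.14 (edgeR, adjusted p = 7.4e-06). The test of a difference between these 2 values did not pass the threshold (edgeR, adjusted p = 0.796).

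Dclk1 (chr3:55242364-55539068, plus) showed the second lowest log2 fold change of the members in WT. Its levels were 544, 991, 1031, 1056 and 1152 CPM in WT somata. They were 145, 157, 245, 216 and 183 CPM in WT growth cones. Soma library 12 was far below its group but still above every growth cone library. The log2 fold change was -2.29 ± 0.21 (edgeR, adjusted p = 7.01e-06) in WT and -2.27 ± 0.18 (edgeR, adjusted p = 3.17e-06) in libraries labelled KO, where somata held 785 to 1111 CPM and growth cones 142 to 248.

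Stathmins bind tubulin dimers; Stmn1 is cytosolic, and Stmn2, Stmn3 and Stmn4 carry a membrane anchor. Stmn1 (chr4:134468320-134473843, plus) had levels of 5688, 4127, 4289, 4232 and 5189 CPM in WT somata. Its levels were 1610.0, 1565, 1317, 1232 and 1356 CPM in WT growth cones. The groups lay far apart, with a log2 fold change of -1.69 ± 0.13 (edgeR, adjusted p = 2.02e-06). KO-labelled somata held 4223 to 4986 CPM and growth cones 1098 to 1626, -1.62 ± 0.13 on the log2 scale (edgeR, adjusted p = 3.05e-06).

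Stmn2, known as SCG10 and abundant in growth cones as a protein (chr3:8509360-8561606, plus), had levels of 3117, 2119, 2443, 2234 and 2653 CPM in WT somata. Its levels in WT growth cones were 2027, 2378, 2312, 2571 and 2420.1 CPM. The libraries overlapped through most of their range, and the log2 fold change was -0.06 ± 0.12, with a 95% interval of -0.33 to 0.21 (edgeR, adjusted p = 0.744). The KO-labelled libraries, with 2089.8 to 2725 CPM in somata and 2001 to 2777 in growth cones, gave 0.07, with an interval of -0.19 to 0.32 (edgeR, adjusted p = 0.691). An offset for transcript length turned the WT value to 0.41 (adjusted p = 0.0379) and gave 0.63 (adjusted p = 0.00743) in libraries labelled KO.

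Relative to Stmn1, Stmn2 RNA was higher in growth cones. The log2 ratio of Stmn2 to Stmn1 per kilobase was -2.45 ± 0.07 in WT somata and -0.81 ± 0.27 in WT growth cones, a 3.11-fold difference (exact permutation p = 0.00794, adjusted 0.0238). With the KO label it went from -2.50 ± 0.06 to -0.80 ± 0.26, a 3.24-fold difference (exact permutation p = 0.00794, adjusted 0.0238). In neither genotype did the growth cone and soma libraries overlap.

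Stmn3 (chr2:181306459-181314500, minus) was measured at 2080.3, 1326, 1586, 1508 and 1305 CPM in WT somata. Its values in WT growth cones were 1066, 1440.0, 1105, 829 and 948 CPM. Growth cone library 8 lay within the soma range, and the log2 fold change of -0.49 ± 0.17 had an adjusted p of 0.0375 (edgeR). That call was lost with DESeq2 size factors (-0.41, adjusted p = 0.0828), with upper-quartile scaling (-0.28, adjusted p = 0.225) and without WT soma library 12 (-0.28, adjusted p = 0.204). It was lost too without WT soma library 22 or 25 or WT growth cone library 7, 9, 10 or 11, with adjusted p-values of 0.0599 to 0.117 (edgeR). Libraries labelled KO, with 1323 to 1771 CPM against 772 to 1301, did not overlap and gave -0.56 ± 0.16 (edgeR, adjusted p = 0.0169).

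Stmn4 (chr14:66344296-66361680, plus) stood at 744, 551, 651, 722 and 754 CPM in WT somata. WT growth cones were at 398, 484, 520.2, 467 and 484 CPM. The groups were close but did not overlap, with a log2 fold change of -0.50 ± 0.12 (edgeR, adjusted p = 0.00635). In libraries labelled KO the levels were 632 to 764 and 370.2 to 543 CPM, and the value was -0.58 ± 0.13 (edgeR, adjusted p = 0.00328).

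**Figure D3:**
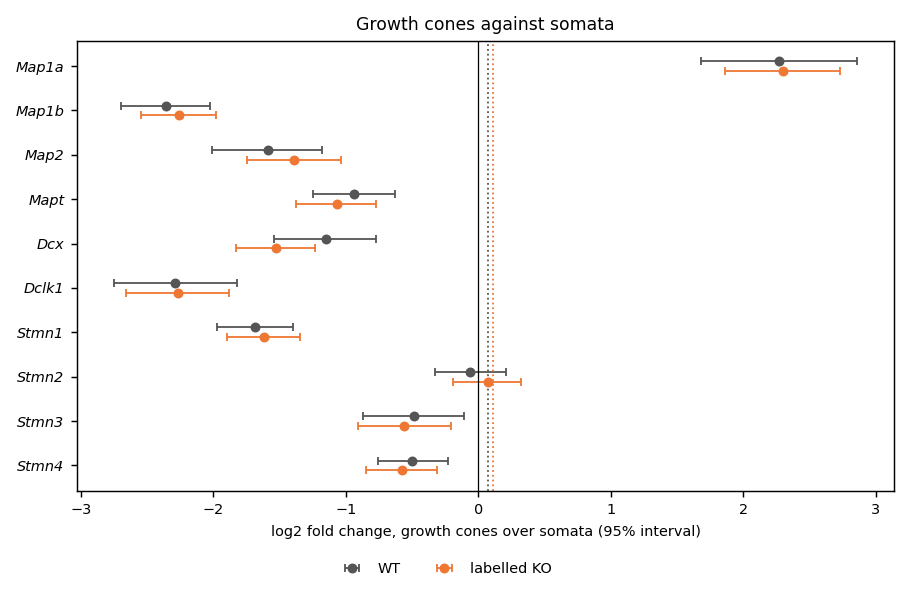
log2 fold change of each member in growth cones over somata, with its 95% interval, in WT libraries and in libraries labelled KO; dotted lines are the medians of all genes tested (0.07 and 0.11). Map1a lies to the right of 0, Stmn2 spans it, and the other 8 genes lie to the left in both genotypes.

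The stathmins take unequal parts of their total in the 2 compartments, whichever length is used to scale them. Per kilobase of exon, Stmn1 was 52.9% ± 2.73 of the stathmin total in WT somata and 31.4% ± 2.6 in WT growth cones. Stmn2 went from 9.68% ± 0.311 to 18% ± 2.86, Stmn3 from 29.6% ± 3.12 to 40% ± 4.09, and Stmn4 from 7.76% ± 0.805 to 10.5% ± 1.41. The exon length of Stmn2 in the table is 5602 bases, while its longest complete coding mRNA has 2073 bases. Scaled by such mRNA lengths, a choice made after seeing the data, Stmn2 was 16.1% of the total in WT somata and 30.2% in WT growth cones, and Stmn1 went from 59% to 35.5%.

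In order of level per kilobase of exon, Stmn1 led in WT somata with 2448 CPM per kilobase, ahead of Stmn3 with 1374 and Stmn2 with 449. Map1b followed at 411, with libraries overlapping those of Stmn2 above it and of Stmn4, at 357, below it. Mapt at 187 stood clear of its neighbours, Dcx (67.4), Dclk1 (62.4) and Map2 (42.3) overlapped each with the next, and Map1a was last at 2.23. In WT growth cones Stmn3 (949) and Stmn1 (737) overlapped at the top, followed by Stmn2 at 418 and Stmn4 at 246. Mapt (94.5) overlapped Map1b (77.4), Dcx stood alone at 29.4, and Map2 (13.6), Dclk1 (12.4) and Map1a (10.4) overlapped each with the next. The same order held in libraries labelled KO, except that Stmn4 (363) stood before Map1b (349.5) in somata. Scaled by the longest complete coding mRNA, the leaders in WT growth cones were Stmn1 (1336), Stmn2 (1129.5) and Stmn3 (949). On that scale Dcx was at 41 ± 10.1 beside Map2 at 35.7 ± 8.07, and Dclk1 was at 23.8 ± 5.22 against Map1a at 10.7 ± 3.42. The Map2 value rests on an mRNA of 6258 bases from the annotation, whose exon list for Map2 differs from that of the count table (16456 bases of exon). In WT somata Stmn2 was then at 1212 ± 190.3 and Map1b at 551 ± 58.2. The order and the overlaps given per kilobase of exon thus depend on the length used.

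Gene length moved with compartment across the whole table. Genes with under 2 kb of exon had a median log2 fold change of 1.45 in WT, those of 2 to 5 kb -0.04, those of 5 to 10 kb -0.42 and those of 10 kb and over -0.24. Map1a, with 12166 bases of exon, belongs to the longest class and was higher in growth cones, while Stmn1, Stmn3 and Stmn4, each under 2 kb, were lower. With an offset for length, Map1a stood at 2.67 in WT, Stmn1 at -2.31, Stmn3 at -1.63, Stmn4 at -1.12 and Mapt at -0.47.

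Over the 20 libraries, the gene most like Map1b in log2 CPM was Crmp1, with a Pearson r of 0.990 among 11337 genes averaging 5 CPM or more. Map1a was most like Gm12407 (r = 0.978), Dclk1 most like Smpd3 (r = 0.981), Stmn1 most like Prmt1 (r = 0.986) and Mapt most like Syngr3 (r = 0.973). Dcx was paired with Smarcc1 (r = 0.969), Map2 with Gng2 (r = 0.961), Stmn4 with Psmd7 (r = 0.937) and Stmn3 with Psmb3 (r = 0.928). For Stmn2 the highest r was 0.702, with Arf1. Members were alike too, with r of 0.97 for Map1b and Dclk1, and Map1a ran against Map1b at -0.94. These values describe libraries that share depth, scaling and above all the 2 compartments.

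Around the members, 58 other genes of the microtubule machinery in 5 lists were examined, of which 57 were tested. These lists, too, were chosen with earlier results of these data known. In WT, 10 were higher in growth cones, 24 were lower and 23 did not pass (edgeR), with a median log2 fold change of -0.71; of all genes tested, 23.1% were higher and 19.7% lower. In libraries labelled KO the counts were 10, 21 and 26, with a median of -0.55, against 21.6% higher and 17.0% lower of all genes tested. The shares of the single lists are read against the same background. Among 13 other microtubule-associated proteins 2 were higher and 4 lower in both genotypes. Tppp3, of the family that promotes tubulin polymerization, was 10.5 ± 5.87 CPM in WT somata and 172 ± 51.4 in WT growth cones, a log2 fold change of 4.09 ± 0.41 (edgeR, adjusted p = 1.03e-05). Map6, which protects microtubules from cold, was lower at -1.33 ± 0.16 (edgeR, adjusted p = 4.41e-05), and Map1s, a short relative of Map1a and Map1b, at -2.35 ± 0.40 (edgeR, adjusted p = 0.000585).

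Of 13 proteins of the growing plus end, 6 were lower, 1 was higher and 6 did not pass in WT, and 5, 1 and 7 in libraries labelled KO. The end-binding genes Mapre2 and Mapre1 went from 1199 to 303 CPM and from 714 to 257 CPM between WT somata and growth cones. Their log2 fold changes were -1.94 ± 0.14 and -1.43 ± 0.19, and that of Slain2, a partner of microtubule polymerases, was -1.39 ± 0.23. Of 9 minus-end and severing proteins, 4 were lower and 1 higher in WT, and 2 and 1 in libraries labelled KO. Camsap3, which caps minus ends, stood at 103 ± 30.8 CPM in WT somata and 10.8 ± 6.6 in growth cones, -3.20 ± 0.48 on the log2 scale (edgeR, adjusted p = 0.000219). Fign, a severing enzyme, was close to absent from WT somata with 0 to 51 counts and 0.338 CPM on average, and had 48 to 708 counts and 10.8 ± 9.66 CPM in WT growth cones. It passed the filter on low counts through growth cones alone, so its test is not given as support, although it is counted among the 10 genes higher there. The 51 counts were those of WT soma library 12.

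Tubulin-modifying enzymes split into 2 higher and 5 lower of 9 in both genotypes. Svbp, the partner of the vasohibin enzymes that remove the terminal tyrosine of tubulin, stood at 103 ± 21 CPM in WT somata and 789.9 ± 202 in WT growth cones, a log2 fold change of 2.98 ± 0.21 (edgeR, adjusted p = 8.55e-07). With the offset for length, Svbp stood at 1.78 in WT and 1.61 in libraries labelled KO, and Tppp3 at 3.38 in WT. Atat1, the tubulin acetyltransferase, was lower at -1.05 ± 0.16, and Ttll1, part of a polyglutamylase, at -1.49 ± 0.25. Of 13 kinases of microtubule-associated proteins and their activators, 4 were higher and 5 lower in both genotypes. Mark4 and Mark2, related kinases that phosphorylate tau, moved apart, with log2 fold changes of 2.09 ± 0.27 and -1.75 ± 0.24 in WT. Cdk5r1, the activator p35 of the kinase Cdk5, was higher at 1.41 ± 0.20 (edgeR, adjusted p = 0.000126).

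**Figure D4:**
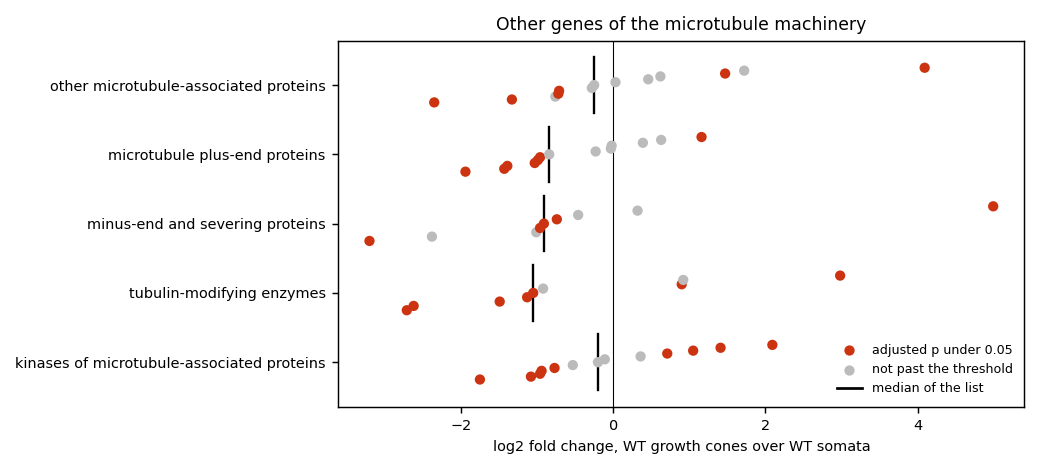
log2 fold change of the 57 other genes tested in WT growth cones over WT somata, in 5 lists. Points are genes, coloured where the adjusted p of the edgeR test was under 0.05, and the black bar is the median of each list; the points at 4.09 and 4.99 are Tppp3 and Fign, and that at -3.20 is Camsap3.

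Between genotypes, no member passed the test in either compartment. In somata, 0 of the 10 genes were called by edgeR, as by DESeq2 and limma-voom, against 0.731% of 14911 genes tested (109). Over all genes, DESeq2 called 393, the fit of all 20 libraries 30 and the fit with the experiment block 34. At an unadjusted p under 0.05 there was 1 member, against 8.57% of all genes tested. That gene was Map1b, with 6508 ± 688 CPM in WT somata and 5539 ± 675 in those labelled KO. The soma libraries overlapped, and the log2 difference was -0.24 ± 0.10 (edgeR, adjusted p = 0.486). The 95% intervals of the 10 members reached no farther than 0.68 from 0 on the log2 scale.

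In growth cones 0 members were called by any of the same 3 tools, and 0 had an unadjusted p under 0.05. Over all 15419 genes tested edgeR called 0 (0%), with 329 (2.13%) at an unadjusted p under 0.05, and DESeq2 called 11. Dcx came nearest, with 372 ± 91.3 CPM in WT and 271 ± 45.8 in growth cones labelled KO. The groups overlapped, and the log2 difference was -0.43 ± 0.21, with a 95% interval of -0.88 to 0.02 (edgeR, adjusted p = 0.999). The intervals of the members reached no farther than 0.88.

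The test of whether the genotype difference itself differed between compartments called 0 members, against 0.0397% of 17645 genes (7). No member had an unadjusted p under 0.05, which 6.98% of all genes tested had. Dcx had the lowest p, with a difference of -0.42 ± 0.23 (edgeR, adjusted p = 0.796). For Map1a it was -0.01, with a 95% interval of -0.68 to 0.66, and for Stmn2 0.09, with an interval of -0.24 to 0.42. The ratios of Map1b to Map1a, Stmn2 to Stmn1 and Mapt to Map2 gave no adjusted p under 0.254 between genotypes (exact permutation test). Of the 58 genes of the 5 lists, 56 were tested in somata and in growth cones and 57 for the difference, and edgeR called 0 in each. Unadjusted p-values under 0.05 numbered 3, 0 and 1, limma-voom called 0 in each, and DESeq2 called 1 in somata. That gene, named after its values were seen, was Slain1 of the plus-end list, with 193 ± 20.9 CPM in WT somata and 137 ± 11.1 in those labelled KO (edgeR, log2 difference -0.49 ± 0.10, adjusted p = 0.0545).

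**Figure D5:**
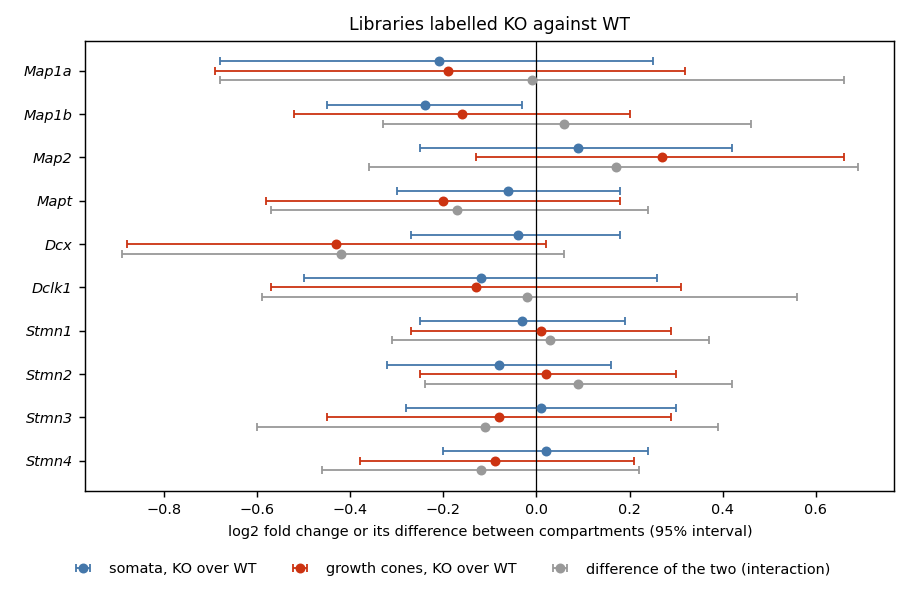
log2 difference of each member between libraries labelled KO and WT, with its 95% interval, in somata and in growth cones, and the difference of those 2 values (interaction). For 9 of the 10 genes every interval spans 0; the soma interval of Map1b runs from -0.45 to -0.03 with an adjusted p of 0.486 (edgeR).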

How the data were processed

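RNA was converted with the SMART-seq v4 kit, which does not mark strand, and made into Nextera XT libraries, per the labels' protocols. The authors deposited 1 table of raw read counts per gene. Per the submitters' processing notes, reads were processed with Trimmomatic 0.39, STAR 2.7.1a and featureCounts 1.5.0, and the build named is GRCm39; the table's coordinates follow GRCm38, and 98.1% of its genes have the exon list of GENCODE M21. The treatment of reads with several matches or in overlapping genes is not given in the sources used here. All columns were matched to libraries by title (0 were not), and 0 table entries named no gene.

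Each comparison was fitted with edgeR 4.0.16 (R 4.3.3; filterByExpr with a minimum count of 10, TMM, quasi-likelihood test) on its 10 libraries, or on all 20 for the interaction, with Benjamini-Hochberg adjustment over all genes tested and a threshold of 0.05. The edgeR test gives no SE, so it was derived as the size of the log2 fold change over the square root of the F statistic. The 95% intervals were built from that SE with the t distribution. CPM levels used TMM over the 20 libraries, marker sums used library totals alone, and exon lengths came from the table. Depth was 18962308 to 51205154 counts per library. Ratios were tested by exact two-sided permutation of 252 regroupings over 12 tests. Alternatives were DESeq2 1.42.0 (size factors and Wald test), limma-voom (limma 3.58.1), upper-quartile and total scaling, no filter, length offsets, detected genes as covariate, a threshold of 0.10, all 20 libraries, an experiment block, and leaving out each library.

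All members were named. Of each pathway list up to 3 genes were named, those with the lowest p in WT among genes called in both genotypes, and for each member the gene most correlated with it. Slain1 was named besides, after its values were seen. The members and lists were chosen with earlier results of these data known.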

Additional observations from a re-analysis of the deposited data

Results flagged for a closer look

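In 3 of the 40 groups of 5 libraries examined (10 genes in 4 groups), 1 library lay apart from the rest by Dixon's test at the 95% level, which chance gives in about 1 of 20 groups. All 3 were of Dclk1. WT soma library 12 held 544 CPM, with the nearest library of its group at 991. Soma library 26 labelled KO held 1111 CPM, with the nearest at 845. Growth cone library 7 labelled KO held 248 CPM, with the nearest at 162.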

How the results depend on the processing

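For the growth cone and soma comparisons, all 294 alternatives for the 7 members other than Stmn2, Stmn3 and Stmn4 kept direction and call. Those at the threshold of 0.10 reused the main fit, so their agreement was fixed in advance. The number of members called in WT was 7 to 10 under the other settings and 8 to 9 when 1 library was left out, and 8 to 10 and 9 to 9 in libraries labelled KO; it was 0 under every setting between genotypes and for the interaction. Upper-quartile scaling moved the median of all genes in WT from 0.07 to 0.28 and library totals moved it to 0.22, so that Stmn2 stayed below that median (0.15 and 0.10); DESeq2 size factors and the Wald test gave Stmn2 0.02, and length offsets 0.41. In libraries labelled KO, Stmn2 was -0.01 with no filter and with all 20 libraries in the fit. The WT call of Stmn3 was also lost with library totals (-0.35, adjusted p = 0.099) and DESeq2's Wald test (adjusted p = 0.0526) and in 7 of 10 fits without 1 library; over all 10 it ran from -0.59 to -0.28. Upper-quartile scaling also ended the calls of Stmn3 in libraries labelled KO (-0.37, adjusted p = 0.0892) and of Stmn4 in WT (-0.29, adjusted p = 0.085), and length offsets those of Mapre1 (adjusted p = 0.0621) and Mark2 (adjusted p = 0.0658) in libraries labelled KO. The cause was not tested.

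Values between genotypes that changed sign were all small and uncalled. In somata, upper-quartile scaling gave Stmn3 -0.00, and detected genes as covariate gave Dcx 0.02, Stmn1 0.07 and Stmn2 0.01. In growth cones, library totals gave Stmn1 -0.01 and length offsets Dclk1 0.06. In the interaction, Map1a was 0.01 with DESeq2 size factors, upper-quartile scaling, library totals and the Wald test, and 0.13 with length offsets, which gave Dclk1 0.22; Stmn1 was -0.03 with limma-voom and -0.08 with detected genes as covariate.

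The replicate block was tested with the experiment number. The number is part of the library titles, but the labels do not say that it marks a shared animal, litter or day. The main genotype tests and the ratio tests were therefore not paired. Deviations of libraries with the same number correlated at 0.0163 to 0.1 in growth cones and at -0.0123 to 0.109 in somata. The WT library correlated best with its own number in 6 of 9 cases, each among 5 libraries labelled KO. That is more often than 1 in 5, but the correlations were low, and these values do not settle whether the numbers mark pairs. The compartments share no number. With the replicate block no member was called; in somata Mapt was 0.01, Dcx 0.03 and Stmn1 0.03, and in the interaction Map1a was 0.13, Dclk1 0.12 and Stmn1 -0.03. Over all genes, the block gave 34 calls in somata, where 109 were made without it, and 0 in the interaction, where 7 were made; the call of Bcl11b in somata was lost (adjusted p = 0.162). DESeq2 called 393 and 273, the fit of all 20 libraries 30 in somata and 7 in growth cones, and leaving out 1 library 67 to 107 in somata and 5 to 12 in the interaction. For the interaction, detected genes as covariate gave 4, length offsets 13 and a threshold of 0.10 21 calls.

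Leaving out 1 library moved Stmn2 between -0.10 and 0.11 in the WT compartment comparison and between -0.03 and 0.11 in libraries labelled KO. In somata between genotypes the ranges were -0.00 to 0.17 for Map2, -0.11 to 0.04 for Mapt, -0.09 to 0.04 for Dcx, -0.07 to 0.05 for Stmn1, -0.14 to 0.01 for Stmn2, -0.05 to 0.14 for Stmn3 and -0.05 to 0.06 for Stmn4. In growth cones they were -0.03 to 0.07 for Stmn1, -0.03 to 0.08 for Stmn2 and -0.18 to 0.02 for Stmn3. For the interaction they were -0.10 to 0.16 for Map1a, -0.06 to 0.15 for Map1b, -0.18 to 0.11 for Dclk1, -0.06 to 0.10 for Stmn1 and -0.01 to 0.16 for Stmn2. The log2 ratio of Mapt to Map2 ranged over 0.49 to 0.85 between WT compartments and -0.27 to 0.04 between soma genotypes. Map1b to Map1a ranged over -0.19 to 0.11 between soma genotypes and -0.12 to 0.24 between growth cone genotypes, where Stmn2 to Stmn1 ranged over -0.09 to 0.09.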
